A study of Mus musculus with 3 samples.

Results

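Distal convoluted tubule cells were picked out of 3 single-cell RNA libraries of mouse kidney as barcodes with at least 200 detected genes, at most 50% mitochondrial UMIs, 3 or more UMIs of Slc12a3, and no more than 1 UMI each of Slc12a1 and Aqp2. The rule found 4734 barcodes of 51795 that passed the filters on genes and mitochondrial share. They numbered 1411 in the db/db fructose library, 2588 in the db/db control library and 735 in the db/m control library. All mice were male and 28 weeks old, and whole kidneys were perfused, minced, digested with collagenase and pronase, and freed of red cells, debris and dead cells. The db/db fructose mice ate a diet with 60% fructose from 8 weeks of age for 20 weeks, whereas the db/db control and db/m control mice ate a fructose-free diet over the same weeks. In db/db mice both copies of the leptin receptor gene are mutated so that its signalling form is not made, in all cells, and the animals are obese and diabetic. The db/m mouse carries 1 normal copy and stays lean. Each group is represented by 1 library, and the number of mice behind each is not given in the labels. No test between groups is therefore possible, and each 95% interval below covers counting error only.

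The distal convoluted tubule lies between the thick ascending limb and the connecting tubule. Its cells take up salt through the thiazide-sensitive cotransporter NCC, which Slc12a3 encodes, under the control of the WNK kinases, and magnesium through channels built from TRPM6. Early cells of the segment contain parvalbumin (Pvalb), and late cells take up calcium through TRPV5, buffer it with the calbindins (S100g and Calb1) and export it through the exchanger NCX1 (Slc8a1) and the pump PMCA4 (Atp2b4). In mice the late cells also begin to carry the epithelial sodium channel and to respond to aldosterone.

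The rule chose on Slc12a3, so the level of that gene only describes the members: the median member had 27 Slc12a3 UMIs in the db/db fructose library, 16 in the db/db control library and 30 in the db/m control library. Trpm6 and Klhl3 (the adaptor of the ubiquitin ligase that removes WNK kinases) were not used by the rule. Both were detected most often in barcodes with 10 or more Slc12a3 UMIs. Among barcodes just outside the limit, with 2 Slc12a3 UMIs, Trpm6 was detected in 2.68% in the db/db fructose library, 4.57% in the db/db control library and 0.820% in the db/m control library. Among those just inside it, with 3 UMIs, the shares were 9.41%, 6.50% and 9.09% in the same order of libraries. Among members with 10 or more they were 54.7%, 47.3% and 44.7%. In the db/m control library the Trpm6 share with 4 to 9 UMIs was 7.89%, no higher than with 3. Pvalb, also not used to choose members, did not keep rising with Slc12a3. It was detected in 47.0%, 53.5% and 52.6% of members with 4 to 9 Slc12a3 UMIs. Among those with 10 or more, the Pvalb shares were 36.4%, 52.4% and 44.2%. Members under 10 Slc12a3 UMIs made up 17.6% of the db/db fructose members, 36.4% of the db/db control members and 14.8% of the db/m control members. The db/db control library thus held the most members that carried the marker weakly.

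**Figure D1:**
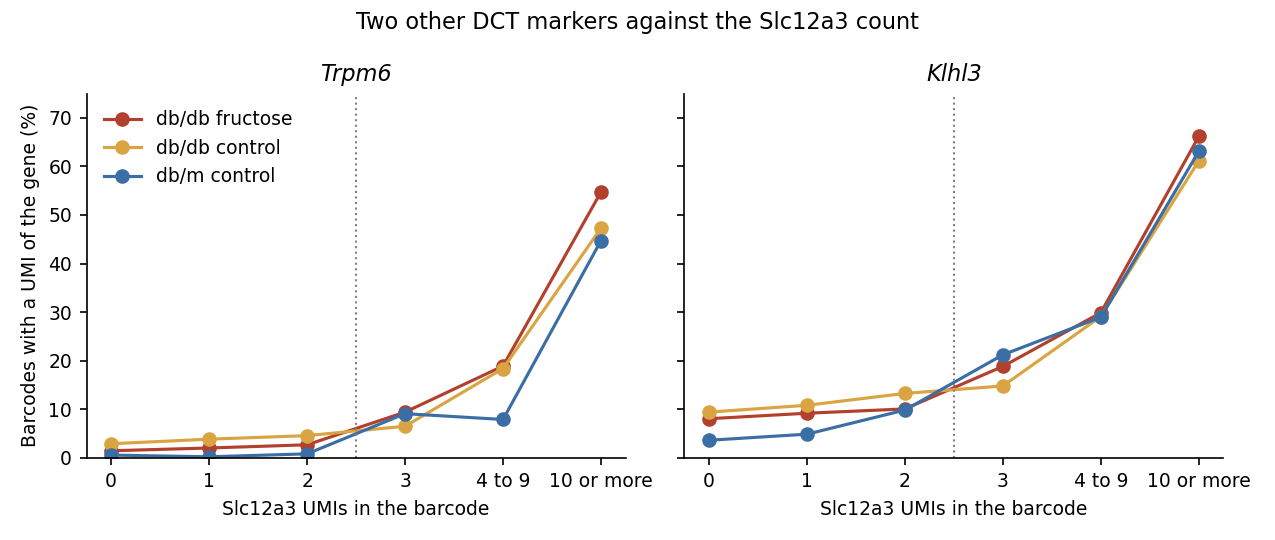
Share of barcodes with a UMI of Trpm6 (left) or Klhl3 (right), in percent, by the number of Slc12a3 UMIs in the barcode, for barcodes within the limits on Slc12a1 and Aqp2. The dotted line marks the limit of the rule, and each coloured line is a library. Trpm6 was detected in 44.7% to 54.7% of members with 10 or more Slc12a3 UMIs and in under 5% of barcodes with 2.

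Free RNA of other cells was present in every library. Slc34a1, the phosphate transporter of the proximal tubule, had a UMI in 69.5% to 74.9% of members with 10 or more Slc12a3 UMIs, and the 12 proximal tubule markers together stood in members at 53.7%, 65.1% and 56.7% of their level in the other barcodes of the db/db fructose, db/db control and db/m control libraries. In the other direction, 6.43%, 9.43% and 4.47% of endothelial-marked barcodes (3 or more UMIs over 7 marker genes) carried 3 or more Slc12a3 UMIs. Member depth was alike, with medians of 1579, 1773 and 1698 UMIs, but the median mitochondrial share of members was 12.9% in the db/db fructose library, 28.6% in the db/db control library and 17.5% in the db/m control library. The 8 immune markers summed to 568, 287 and 39.2 CPM (the members' counts scaled to 1e6 UMIs) in those libraries, and C1qa, Lyz2, Cd3e and Nkg7 were at 0 in db/m control members. The part of free RNA, mitochondrial share and immune RNA in the results below was not tested. The median log2 ratio over all measured genes (20 CPM or more in either library of a pair) was 0.28 for db/db fructose over db/db control and -0.18 for db/db control over db/m control. It was near 0 after scaling by median-of-ratios size factors, so counts of list genes between libraries are given with both scalings. Beside them stand the shares over all measured genes: for db/db fructose over db/db control 11.7% higher and 0.672% lower with CPM and 2.67% higher and 2.43% lower with size factors, and for db/db control over db/m control 3.2% higher and 11.1% lower with CPM and 6.4% higher and 4.88% lower with size factors. Of the member barcodes, 5 occurred in both the db/db fructose and db/db control libraries and 4 in both the db/db control and db/m control libraries.

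Members made up 7.30% (95% interval 6.94% to 7.68%) of filtered barcodes in the db/db fructose library, 12.2% (11.8% to 12.6%) in the db/db control library and 6.53% (6.08% to 7.00%) in the db/m control library. With 10 or more Slc12a3 UMIs required, a limit chosen after the data were seen, these shares were 6.01%, 7.76% and 5.56%. The db/db control library kept the highest share, but its distance from the others shrank.

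The genes that stood furthest above the other barcodes in all 3 libraries after Slc12a3 included several known genes of the segment. Trpm6 averaged 15.0 times its level in other barcodes in the db/db fructose library, 6.69 times in the db/db control library and 30.7 times in the db/m control library. Uroc1 (urocanase, an enzyme of histidine breakdown), Cwh43, Pvalb, Klhl3 and Tox3 came next, and the transcription factor genes Emx1 and Lhx1 and the kinase gene Wnk1 were also among the first 13. The ratios were lowest in the db/db control library for each of the first 5 genes. Since the members were chosen by read-out, these ratios describe the members and test nothing.

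Genes of the NCC pathway mostly stayed within 1.5-fold between the libraries. Wnk1 had 2678 CPM in db/db fructose members, 2032 in db/db control members and 2403 in db/m control members, and Wnk4 had 507, 384 and 543 CPM. Klhl3 had 570, 401 and 546 CPM. Both kinases and the adaptor were thus lowest by CPM in the db/db control library. With size factors, the log2 ratios for db/db control over db/m control were -0.05 for Wnk1, -0.31 for Wnk4 and -0.25 for Klhl3. Slc12a3 itself stood at 13578, 9413 and 15830 CPM, and its log2 ratio for db/db control over db/m control was -0.75 in all members but -0.45 in members with 10 or more UMIs. Of the 26 genes of NCC regulation, 2 were at least 1.5-fold higher and 2 lower in db/db control over db/m control, against a background of 3.2% higher and 11.1% lower among the 6621 genes measured. With size factors 3 were higher and 0 lower. The higher genes with CPM were Sgk1, the aldosterone-induced kinase, at 174 CPM in db/db control and 59.8 CPM in db/m control members, and Hsd11b2, which shields the mineralocorticoid receptor from glucocorticoids, at 50.1 and 32.8 CPM. The lower genes with CPM were Usp2, a deubiquitinase (log2 ratio -0.70), and Bsnd, the chloride channel subunit barttin (-0.63), and neither passed 1.5-fold with size factors. Sgk1 was below its level in other barcodes in every library, where it stood at 0.49, 0.58 and 0.36 times that level, and Hsd11b2 stood at 0.10, 0.21 and 0.05 times. In db/db fructose over db/db control members, 2 of the 26 were higher and 0 lower, against 11.7% higher and 0.672% lower among 6842 genes. They were Usp2 (log2 ratio 0.70) and Fkbp5, a glucocorticoid-induced gene (log2 ratio 0.90, but -0.46 after subtraction of free RNA). With size factors 1 was higher and 2 were lower.

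The 25 genes of distal convoluted tubule identity were on the low side in the db/db control library, where 6 of 24 measured were at least 1.5-fold lower than in db/m control members and 0 higher, against 11.1% lower of all measured genes. Slc12a3, on which the members were chosen, is in the list and is 1 of the 6. Their median log2 ratio was -0.37, and 0.48 in the other barcodes of the same libraries. With size factors only 1 of the 24 was lower, and with 10 or more Slc12a3 UMIs required also 1. Egf, the precursor of the growth factor that stimulates TRPM6, was that gene in the fit with size factors: it had 1426 CPM in db/db control members and 2529 CPM in db/m control members, a log2 ratio of -0.83 (-0.88 to -0.77). In db/db fructose members it had 2264 CPM, a log2 ratio over db/db control of 0.67. Cnnm2, a magnesium transport protein of the basolateral side, followed the same order with 181, 120 and 200.02 CPM in db/db fructose, db/db control and db/m control members. Trpm6 had 376, 253 and 268 CPM, so db/db control over db/m control gave a log2 ratio of only -0.08 (-0.24 to 0.08). Of 9 measured magnesium genes, 2 were lower in db/db control over db/m control with CPM and 1 with size factors, against 11.1% and 4.88% of all measured genes. In db/db fructose over db/db control 3 were higher with CPM, against 11.7% of all measured genes, and 0 with size factors. Fxyd2, the gamma subunit of the sodium pump, had 3479, 3387 and 4443.5 CPM in the 3 libraries.

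Several genes of calcium reabsorption had their highest levels in db/db fructose members. S100g had 3195.5 CPM in db/db fructose, 1339.6 CPM in db/db control and 499.7 CPM in db/m control members. Calb1 had 2292.5, 1075 and 639 CPM, and Slc8a1 1295, 492 and 371 CPM. The order of the libraries was the same for all 3 genes and the counting intervals did not overlap. In mm10 (GENCODE M21 annotation), S100g lies at chrX:162961992-162964599, Calb1 at chr4:15881264-15908064 and Slc8a1 at chr17:81373105-81738377. Klk1 (tissue kallikrein, a protease secreted by the late distal tubule) was also detected in many barcodes outside the members, as given below. Its levels in members were 3803, 1802 and 1295 CPM in the same order. Pvalb, the early marker, ran the other way, with 661 CPM in db/db fructose, 765 CPM in db/db control and 1153 CPM in db/m control members.

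**Figure D2:**
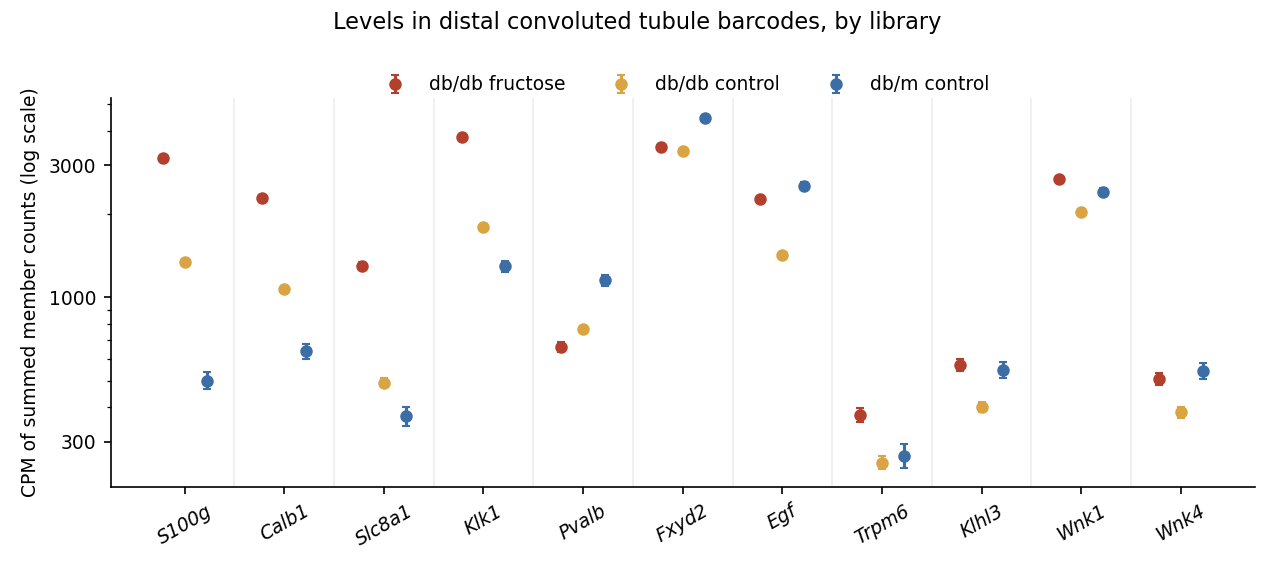
CPM of summed member counts on a log scale for late calcium and kallikrein genes, early genes and magnesium and NCC genes in db/db fructose (red), db/db control (yellow) and db/m control (blue) members. Bars are exact Poisson 95% intervals, often smaller than the points. S100g, Calb1, Slc8a1 and Klk1 were highest in db/db fructose members and Pvalb was highest in db/m control members.

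For db/db fructose over db/db control, 6 of 12 measured calcium genes were at least 1.5-fold higher and 1 lower with CPM, and 3 higher and 1 lower with size factors, against 2.67% higher and 2.43% lower of all measured genes with that scaling. With CPM those shares were 11.7% and 0.672%. Slc8a1 had the largest log2 ratio, 1.40 (1.33 to 1.47), followed by S100g at 1.25 (1.21 to 1.30) and Calb1 at 1.09 (1.04 to 1.14). Kl, the co-receptor of FGF23, had a log2 ratio of 0.73, Atp2b4 of 0.65 and Pth1r, the parathyroid hormone receptor, of 0.63. Casr, the calcium-sensing receptor, was the lower gene, with 12.1 CPM in db/db fructose and 21.2 CPM in db/db control members. In the other barcodes of these libraries the log2 ratio was -0.08 for Slc8a1 and -0.11 for Calb1, while S100g had 0.84. Slc8a1 and Calb1 were thus higher in db/db fructose members but not in the other barcodes as a group. Barcodes marked as principal cells (3 or more Aqp2 UMIs and at most 1 each of Slc12a1 and Slc12a3) also differed between the db/db libraries. S100g had 13213 CPM in db/db fructose and 4551 CPM in db/db control barcodes of that class, Calb1 2102 and 1284 CPM, and Slc8a1 747 and 565 CPM, so all 3 genes were higher in the db/db fructose library in that class too.

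For db/db control over db/m control, 3 of 12 calcium genes were higher and 0 lower with CPM, and 5 higher and 0 lower with size factors, where 6.4% of all measured genes were higher. With CPM that share was 3.2%. S100g had a log2 ratio of 1.42 (1.32 to 1.53), Calb1 of 0.75 (0.65 to 0.85) and Cyp24a1, the enzyme that inactivates vitamin D hormone, of 2.67 (2.21 to 3.17), with 164 CPM in db/db control and 25.7 CPM in db/m control members. Slc8a1 reached 0.41. In the other barcodes of these libraries Calb1 had a log2 ratio of 1.77 and Slc8a1 of 1.94, both above the members' values, and S100g had 1.24, below the members' value. Among barcodes of the thick ascending limb (3 or more Slc12a1 UMIs and at most 1 each of Slc12a3 and Aqp2), the share with 3 or more S100g UMIs was 5.11% in the db/db fructose library, 7.04% in the db/db control library and 0.310% in the db/m control library. S100g outside the late tubule thus also differed between the db/db and db/m control libraries, and its part in the difference between members was not tested.

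Upstream sequences are shown for 2 genes that were highest in db/db fructose members, S100g and Klk1, and for Pvalb, which was lowest there. They are the 250 bases before the RefSeq start in GRCm38.p6, at chrX:162964600-162964849 (minus strand) for S100g, chr7:44225110-44225359 (plus strand) for Klk1 and chr15:78206401-78206650 (minus strand) for Pvalb, whose more upstream of 2 listed starts was taken. Capitals mark matches to AGGTCA, the half-site that many nuclear receptors recognise, or to its reverse complement TGACCT.
S100g: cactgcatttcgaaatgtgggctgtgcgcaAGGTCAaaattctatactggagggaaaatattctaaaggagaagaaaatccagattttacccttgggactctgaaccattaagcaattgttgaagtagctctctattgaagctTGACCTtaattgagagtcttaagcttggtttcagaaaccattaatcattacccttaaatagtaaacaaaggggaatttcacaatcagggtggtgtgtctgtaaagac
Klk1: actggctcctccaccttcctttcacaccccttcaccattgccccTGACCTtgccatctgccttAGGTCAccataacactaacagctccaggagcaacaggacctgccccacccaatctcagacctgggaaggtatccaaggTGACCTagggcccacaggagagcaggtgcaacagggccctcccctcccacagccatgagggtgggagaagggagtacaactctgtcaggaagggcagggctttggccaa
Pvalb: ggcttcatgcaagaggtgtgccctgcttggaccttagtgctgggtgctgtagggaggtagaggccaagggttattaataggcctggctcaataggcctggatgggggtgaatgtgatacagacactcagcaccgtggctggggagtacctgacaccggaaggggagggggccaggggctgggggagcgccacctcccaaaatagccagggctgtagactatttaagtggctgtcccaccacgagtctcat
The S100g window held 2 matches, the Klk1 window 3 and the Pvalb window 0. Of all 32851 windows of this length in the table, 14.0% held at least 1 match on either strand. A match describes the letters and is no evidence of a site in use.

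Members were then split by Pvalb and S100g at 3 UMIs each. Members with S100g alone, the late class, made up 15.3% (13.5% to 17.3%) of the db/db fructose members, 12.9% (11.7% to 14.3%) of the db/db control members and 3.13% (1.99% to 4.66%) of the db/m control members. Members with Pvalb alone, the early class, made up 2.76%, 9.12% and 16.7%. Members with both made up 11.3%, 8.31% and 5.31%. Most members, 70.7%, 69.6% and 74.8%, had neither gene at 3 UMIs, and at a median of 1375 to 1621.5 UMIs they were the shallowest class in each library.

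Where Pvalb was present, S100g was present far more often in the db/db fructose library. Of members with 3 or more Pvalb UMIs, 80.3% (74.1% to 85.6%) also had 3 or more S100g UMIs in the db/db fructose library, against 47.7% (43.0% to 52.4%) in the db/db control library and 24.1% (17.7% to 31.4%) in the db/m control library. Of members with fewer Pvalb UMIs, the shares were 17.8%, 15.7% and 4.01%. The 3 intervals of the Pvalb members did not overlap. Among the 41 db/db fructose members with 11 or more Pvalb UMIs, 92.7% had S100g at 3 or more, as did 59.7% of 67 such db/db control members and 21.1% of 38 such db/m control members. Members with Pvalb were deeper, with median depths of 3318, 2704 and 2894.5 UMIs in the 3 libraries against 1448, 1657 and 1446 for the rest. With every barcode thinned to 1000 UMIs before the rule was applied, the share among Pvalb members was 59.4% (46.9% to 71.1%) in the db/db fructose library, 23.0% (17.1% to 29.7%) in the db/db control library and 13.9% (7.16% to 23.6%) in the db/m control library. The db/db fructose library kept its distance after thinning, whereas the intervals of the db/db control and db/m control libraries then overlapped. In endothelial-marked barcodes thinned in the same way, 3 or more S100g UMIs were found in 0.926%, 1.72% and 0.216%.

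**Figure D3:**
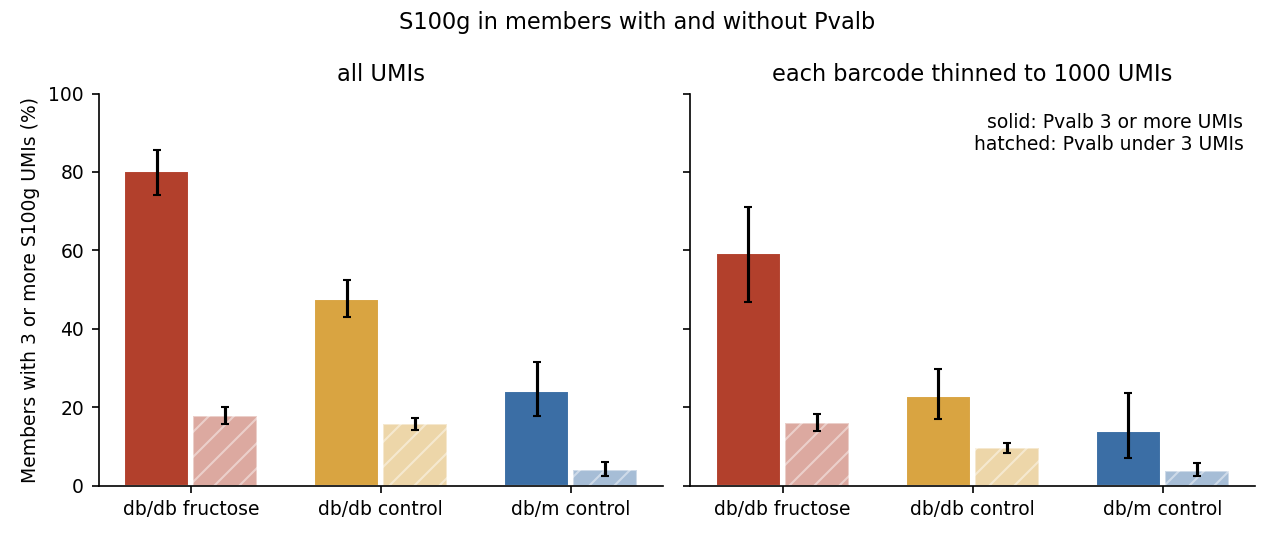
Share of members with 3 or more S100g UMIs, in percent, among members with 3 or more Pvalb UMIs (solid) and under 3 (hatched), for the db/db fructose, db/db control and db/m control libraries, with all UMIs (left) and after thinning each barcode to 1000 UMIs (right). Bars are exact binomial 95% intervals. The solid bars stand at 80.3%, 47.7% and 24.1% on the left and at 59.4%, 23.0% and 13.9% on the right.

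The S100g UMIs were concentrated in few members. The 10% of members with the most held 77.5% of all S100g UMIs in the db/db fructose library, 64.8% in the db/db control library and 87.3% in the db/m control library, and single members reached 435, 262 and 61 UMIs. For Slc8a1, the 10% of members with the most UMIs of that gene held 42.8%, 53.9% and 70.9%. For Calb1, ranked by its own UMIs, the shares were 44.6%, 44.4% and 64.8%. S100g was detected in 63.9% of db/db fructose members, 66.2% of db/db control members and 21.5% of db/m control members. Slc8a1 was detected in 67.6% of db/db fructose members, 44.7% of db/db control members and 28.4% of db/m control members, and Calb1 in 79.2%, 69.9% and 40.5%. In endothelial-marked barcodes thinned to 1000 UMIs Slc8a1 was detected in 11.8%, 10.2% and 3.24%, and in thinned members in 53.7%, 29.9% and 19.6%. For S100g the shares were 19.4%, 27.9% and 2.81% in such endothelial-marked barcodes and 52.7%, 48.1% and 16.5% in thinned members. For Calb1 they were 14.4%, 22.3% and 4.10%, and 68.6%, 53.2% and 29.9%. For Klk1 they were 41.9%, 50.7% and 14.5%, and 68.4%, 65.9% and 42.1%. Thinned barcodes of the thick ascending limb had Klk1 more often than members did, in 77.7%, 80.6% and 62.5%. Among all thinned barcodes other than members the Klk1 shares were 57.2%, 66.8% and 28.4%. The part of Klk1 RNA from outside the members in its member levels was not tested. S100g detection outside the tubule thus also differed between the db/db and db/m control libraries.

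The higher Slc8a1 and Calb1 levels of db/db fructose members held within every class of the split. For db/db fructose over db/db control the log2 ratio of Slc8a1 was 1.03 in members with S100g alone, 1.28 in those with both, 1.64 in those with Pvalb alone and 1.47 in those with neither. For Calb1 it was 0.89, 0.93, 0.98 and 1.11 in the same classes, and no interval reached 0. The ratios were thus about as large within the classes as over all members. For db/db control over db/m control the classes disagreed. Slc8a1 had a log2 ratio of -1.38 in members with S100g alone, where the db/m control library had 23 members and 121 Slc8a1 UMIs, and of 0.87, 0.38 and 0.40 in the classes with both, Pvalb alone and neither. Calb1 had -0.32 in members with S100g alone and 0.63, 0.61 and 0.91 in the others. Klk1 was higher in db/db control over db/m control in members with neither gene only (0.82), and its log2 ratios were -0.26, -0.39 and -0.36 in the others.

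Within each library, late members (S100g alone) were set against early ones (Pvalb alone). Both classes were cut by read-out from the same cells, so the ratios are a description. Of 5516 genes at 20 CPM or more in either class of every library, 8.87% were at least 1.5-fold higher in late members in all 3 libraries and 5.37% lower, or 489 and 296 genes. With barcodes thinned to 1000 UMIs the counts were 140 higher and 140 lower. Among 11 measured calcium genes 5 were higher and 0 lower, S100g among them by the choice of the classes. Slc8a1 had log2 ratios of 1.11 in the db/db fructose library, 1.71 in the db/db control library and 3.48 in the db/m control library. Klk1 had 1.79, 1.86 and 1.77, Pth1r 1.01, 0.64 and 1.02, and Atp2b4 1.15, 0.74 and 1.84. Calb1 differed by 1.25 in the db/m control library but by 0.23 and 0.32 in the db/db fructose and db/db control libraries. In db/db fructose members Calb1 had 2808 CPM in the late and 2397 CPM in the early class, and in db/m control members 1898 and 798 CPM. Nr3c2, the mineralocorticoid receptor, was at 40.4, 35.7 and 55.3 CPM in late members and at 0, 16.5 and 18.0 CPM in early members. These values rest on 22, 27 and 3 UMIs in late and 0, 10 and 7 UMIs in early members. The interval of the db/m control log2 ratio ran from -0.96 to 3.75. Members with neither Pvalb nor S100g at 3 UMIs had 56.2, 41.7 and 61.2 CPM, above the late members. Of 14 measured genes of late distal sodium and potassium transport, 3 were higher and 1 lower in all 3 libraries. The higher ones were Klk1, Nr3c2 and Aqp2 (limited by the rule), and the lower one was Atp1b1. Scnn1a, of the epithelial sodium channel, had log2 ratios of -0.47, -0.38 and -0.18. Those of Scnn1b and Scnn1g were positive, on 11 or fewer UMIs in early members. Trpv5 had 15, 9 and 1 UMIs in late members.

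Among the genes higher in the early class, Fxyd2 had log2 ratios of late over early of -1.60, -1.19 and -1.80 in the db/db fructose, db/db control and db/m control libraries. Ckb, the brain-type creatine kinase that regenerates ATP, had -1.76, -1.72 and -2.81. Fabp3, a fatty acid-binding protein, had -1.59, -1.41 and -2.55. Wfdc15b, a small secreted protein with a protease inhibitor fold, had -2.23, -2.10 and -3.73, and Defb1, an antimicrobial defensin, had -1.40, -1.46 and -1.72. Ppp1r1a, a phosphatase inhibitor, had -1.20, -1.24 and -2.15. Members with neither Pvalb nor S100g at 3 UMIs had Fxyd2 at 1922, 1794 and 1948 CPM. Late members had more, at 2595, 2991 and 2616 CPM. Fabp3 and Defb1 were also lower in the class with neither than in late members of each library. Ckb and Wfdc15b were not lower there in every library. Of 25 genes of nuclear oxidative phosphorylation, 16 were lower in late members in all 3 libraries and 0 higher, and their median log2 ratio was -0.95, against 0.17 over all measured genes. The 13 genes of the mitochondrial genome gave 0 in either direction. Early members were deeper than late ones, with medians of 2673, 2404.5 and 2717 UMIs against 1946, 1954 and 2078. Their median mitochondrial share was also higher, at 30.6%, 34.4% and 26.7% against 16.6%, 31.3% and 13.7%. The part of depth and mitochondrial share in these ratios was not tested. Of the identity list 6 of 25 were lower, of which Pvalb was fixed by the choice of the classes. Kcnj10 was another, the basolateral potassium channel (-0.78, -0.82 and -0.74). Trpm6, Klhl3 and Wnk1 did not pass 1.5-fold in all 3 libraries. The db/db fructose early class held 39 members and the db/m control late class 23, and these set the widest intervals.

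**Figure D4:**
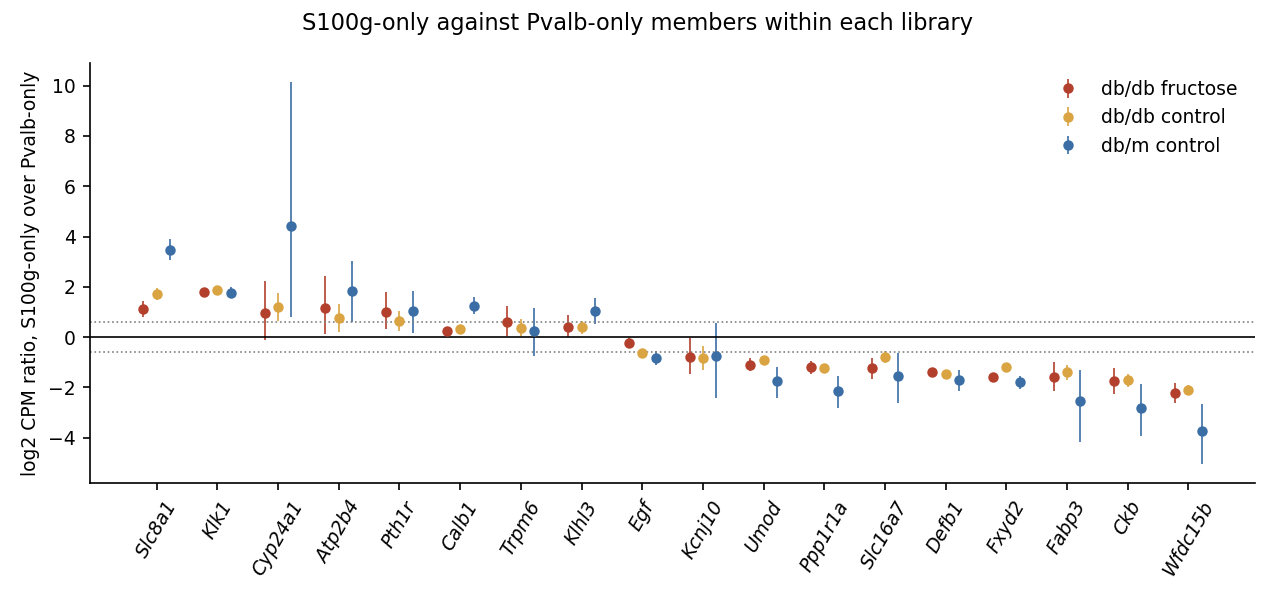
Log2 CPM ratio of members with S100g alone over members with Pvalb alone, within the db/db fructose (red), db/db control (yellow) and db/m control (blue) libraries, for genes of calcium handling, identity and metabolism. Bars are exact conditional binomial 95% intervals and dotted lines mark 1.5-fold. Slc8a1 and Klk1 were higher in late members of every library, and Fxyd2, Ckb and Wfdc15b lower.

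Genes of cholesterol synthesis and uptake were lower in db/db control over db/m control members. Of 13 measured genes of the list, 11 were at least 1.5-fold lower in db/db control members and 0 higher, and 10 with size factors, where 4.88% of all measured genes were lower. Their median log2 ratio was -1.10, and -0.62 in the other barcodes. Idi1, which makes the isoprenoid building block, had 21.03 CPM in db/db control and 51.5 CPM in db/m control members. Fdps (log2 ratio -1.82), Insig1 (-1.51) and Cyp51 (-1.39) were also lower. In db/db fructose over db/db control, 6 of 10 measured genes of the list were higher and 0 lower with CPM, and 4 higher and 0 lower with size factors. Sqle (log2 ratio 1.12) and Msmo1 (1.08), enzymes of the pathway, were among them, and the median in other barcodes was 0.62. Of all measured genes, 11.7% were higher in this comparison with CPM and 2.67% with size factors. The genes named here stood at 51.5 CPM or less in members of every library.

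Pdk4, a kinase that inhibits pyruvate dehydrogenase, had 123 CPM in db/db fructose members, 271 CPM in db/db control members and 158 CPM in db/m control members. It was thus highest in db/db control members, with a log2 ratio over db/m control of 0.77 (0.58 to 0.98), and db/db fructose over db/db control gave -1.14 (-1.31 to -0.97). The other barcodes differed in the same directions, by 1.29 and -0.90. Of genes of fatty acid oxidation, 6 of 23 were higher and 4 lower in db/db control over db/m control with CPM, and 6 higher and 2 lower with size factors. The background there was 3.2% higher and 11.1% lower with CPM. In db/db fructose over db/db control 0 of 21 were higher and 6 lower with CPM, and 0 higher and 9 lower with size factors, against 0.672% and 2.43% lower of all measured genes. Lpl, lipoprotein lipase, had 115.5 CPM in db/db control and 306 CPM in db/m control members (log2 ratio -1.41). Cd36, a fatty acid transporter, had 7.51 and 62.4 CPM (-3.05), but stood below its level in other barcodes. Ehhadh, an enzyme of peroxisomal fatty acid oxidation, had 20.8 CPM in db/db fructose and 46.2 CPM in db/db control members.

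The next sentences rank the 1258 genes with 50 CPM or more in the higher library and, there, at least their level in other barcodes. Besides Lpl and Idi1, the genes at the low end in db/db control over db/m control members included Socs2, an inhibitor of growth hormone signalling (22.0 CPM in db/db control and 67.5 CPM in db/m control members, log2 ratio -1.62), Per2 (-1.40), Afm (-1.34), Ier3 (-1.23) and Tubb2a (-1.16). Ghr, the growth hormone receptor (-0.82), and Gcgr, the glucagon receptor (-0.93), were the 2 lower of 16 measured hormone and growth factor receptors with CPM, and with size factors 2 were lower and 1 higher. The CPM share of lower receptors was near the 11.1% of all measured genes. At the high end, after S100g, Pdk4 and Calb1, the log2 ratios were small: Zfp664 0.53, Prom1 0.47, Zfp292 0.43, R3hdm2 0.41 and Ptprf 0.41. Insulin signalling gave 0 of 17 genes past 1.5-fold in either direction with CPM and 1 higher with size factors. Of 25 genes of nuclear oxidative phosphorylation 5 were lower, and 0 with size factors, and of 16 genes of the unfolded protein response 4 were lower, and 0 with size factors. Of all measured genes, 11.1% were lower with CPM and 4.88% with size factors.

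Several genes of the injury list were higher in db/db fructose over db/db control members. Spp1, osteopontin, had 3038 CPM in db/db fructose, 892 CPM in db/db control and 662 CPM in db/m control members, a log2 ratio between the db/db libraries of 1.77 (1.72 to 1.82). Clu, clusterin, had 1201, 426 and 492 CPM (log2 ratio 1.49). Gdf15, a stress-induced hormone that is not in the list, had 244, 80.6 and 90.04 CPM (1.60). Spp1 and Clu were thus highest in the db/db fructose library by a wide margin, and in other barcodes their log2 ratios were 0.85 and 0.68. Spp1 was detected in 80.7%, 69.3% and 52.2% of members, and the 10% of members with the most held 69.5%, 45.2% and 52.8% of the UMIs. Gdf15 was detected in 21.3%, 10.9% and 13.1%. Cebpd (1.54), Ptgs1 (1.46) and Esrp1 (1.69), not in the list either, were also among the 8 highest. Of 15 measured injury genes, 8 were higher and 0 lower with CPM, where 11.7% of all measured genes were higher, and 6 higher and 2 lower with size factors, where 2.67% were higher and 2.43% lower. The median log2 ratio of the 15 was 0.63 in members and 0.68 in other barcodes. Only 5 of the 15 stood at or above their level in other barcodes.

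Lcn2, neutrophil gelatinase-associated lipocalin, had the largest ratio, with 94.2 CPM in db/db fructose and 7.70 CPM in db/db control members (log2 ratio 3.61, 3.14 to 4.12), and 0 UMIs in db/m control members. It came from few cells. Its 281 UMIs lay in 25 of 1411 db/db fructose members, up to 69 in a single member, and its 41 UMIs in 19 of 2588 db/db control members. The absence of a UMI in 735 db/m control members allows a share of up to 0.501% with a UMI. Ccl4, a chemokine of leukocytes, had 172 UMIs in 10 db/db fructose members and 79 in 12 db/db control members. Beside it the 8 immune markers summed to 568 CPM in db/db fructose and 287 CPM in db/db control members. Cd74, the invariant chain of MHC class II, is 1 of these markers and made up most of the sum, with 420.5 and 206 CPM. Cd74 was detected in 9.28% of db/db fructose and 7.77% of db/db control members, and a single db/db fructose member held 408 of its 1254 UMIs.

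Immediate-early genes, which also respond to tissue digestion, gave 16 of 24 higher and 0 lower in db/db fructose over db/db control with CPM, and 8 higher with size factors. Of all measured genes, 11.7% were higher with CPM and 2.67% with size factors. Nr4a1 had 325 CPM in db/db fructose, 137 CPM in db/db control and 235 CPM in db/m control members. Its log2 ratio between the db/db libraries was 1.24 in members and 0.19 in other barcodes. Egr1 (1.22), Socs3 (1.28) and Atf3 (1.18) differed in the other barcodes too, by 0.80, 0.80 and 0.53. In db/db control over db/m control, 10 of the 24 were lower and 0 higher with CPM, where 11.1% of all measured genes were lower, and 5 lower and 2 higher with size factors. Hspa1a, a heat shock protein, had 17.7 CPM in db/db control and 54.7 CPM in db/m control members. Clock genes went in both directions. Of 13 measured, 6 were higher and 2 lower in db/db fructose over db/db control with CPM, and 4 higher and 4 lower with size factors. The repressor genes Nr1d2 (62.03 CPM in db/db fructose and 11.6 CPM in db/db control members) and Nr1d1 (59.02 and 15.8 CPM) and the period gene Per3 (37.6 and 11.3 CPM) had the largest ratios. In other barcodes these genes had log2 ratios of 1.70, 2.19 and 2.15. Over all genes measured in members, 11.7% were higher and 0.672% lower with CPM, and 2.67% and 2.43% with size factors. The hour of tissue collection is not given in the labels.

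**Figure D5:**
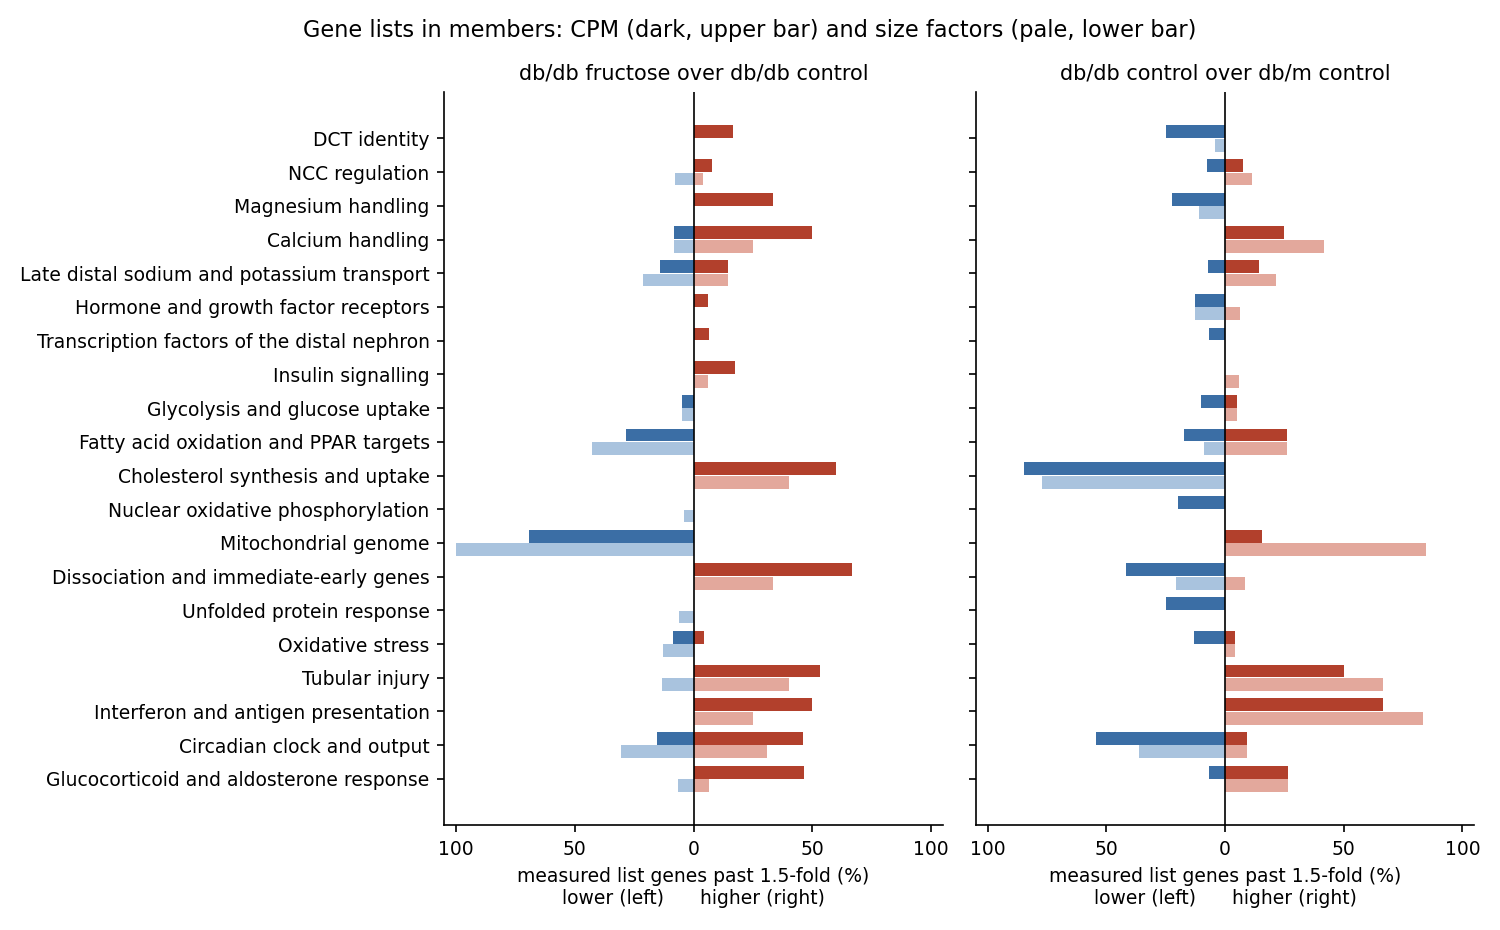
Share of the measured genes of each list, in percent, that were at least 1.5-fold higher (right, red) or lower (left, blue) in db/db fructose over db/db control members (left panel) and in db/db control over db/m control members (right panel). Dark upper bars use CPM and pale lower bars size factors. With CPM, 6 of 10 cholesterol genes were higher in the left panel and 11 of 13 lower in the right panel. The mitochondrial genome gave 2 of 13 higher with CPM and 11 of 13 with size factors in the right panel.

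The lowest ratios in db/db fructose over db/db control, after Pdk4, included genes that were also higher in early than in late members. Wfdc15b had 388 CPM in db/db fructose, 683 CPM in db/db control and 749 CPM in db/m control members (log2 ratio between the db/db libraries -0.82), and Ckb 237, 331 and 563 CPM (-0.49). Pgam2, the muscle form of phosphoglycerate mutase (-0.58), Sned1 (-0.53), Lars2 (-0.53), Retsat (-0.48) and Aebp1 (-0.48) completed the 8. Transcripts of the mitochondrial genome were lower in db/db fructose over db/db control in 9 of 13 genes with CPM and in 13 of 13 with size factors, and higher in db/db control over db/m control in 2 and in 11. Of all measured genes, 0.672% and 2.43% were lower in the first comparison and 3.2% and 6.4% higher in the second. mt-Co1, a subunit of cytochrome oxidase, had 31048 CPM in db/db fructose, 56025 CPM in db/db control and 39500 CPM in db/m control members. These transcripts form the mitochondrial share of each barcode given above, and other barcodes differed likewise in that share, with medians of 10.8%, 25.6% and 15.4%.

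Other lists bore on cell types and hormones outside the segment. For db/db control over db/m control, 3.2% of all measured genes were higher and 11.1% lower with CPM. With size factors these shares were 6.4% and 4.88%. For db/db fructose over db/db control they were 11.7% and 0.672% with CPM and 2.67% and 2.43% with size factors. Of 12 measured injury genes, 6 were higher and 0 lower in db/db control over db/m control members with CPM and 8 higher and 0 lower with size factors, but 2 of the 12 stood at or above their level in other barcodes. Of 6 measured genes of interferon response and antigen presentation 4 were higher with CPM and 5 with size factors, and 0 of the 6 reached the level of other barcodes. Cd74, 1 of the 8 immune markers, was at 206 CPM in db/db control and 34.1 CPM in db/m control members. It made up most of the sum of those markers, 287 and 39.2 CPM. Of 15 measured genes of the glucocorticoid and aldosterone response, 4 were higher and 1 lower in db/db control over db/m control (4 and 0 with size factors), and 7 higher and 0 lower in db/db fructose over db/db control, where size factors left 1 higher and 1 lower. Of 15 transcription factor genes of the distal nephron 1 was lower in db/db control over db/m control, Lhx1 (log2 ratio -0.71), and 1 was higher in db/db fructose over db/db control, Mecom (0.67), with 0 in either direction by size factors in both comparisons. Of 11 measured clock genes, 1 was higher and 6 lower in db/db control over db/m control with CPM, and 1 higher and 4 lower with size factors. Glycolysis gave 1 higher (Pdk4) and 2 lower of 20 with CPM, a share lower near the 11.1% of all measured genes, and 1 higher and 0 lower with size factors. The lower ones with CPM were Ldhb (-0.67), a lactate dehydrogenase subunit, and Pkm (-0.59), a pyruvate kinase.

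Genes of fructose entry and breakdown, named after their values were seen because of the diet, stood below the level of other barcodes in members of every library. The fructose transporter gene Slc2a5 had 23.1 CPM in db/db fructose, 18.8 CPM in db/db control and 7.07 CPM in db/m control members, at 0.58, 0.63 and 0.72 times the level of the others. Khk, fructokinase, had 163, 134 and 127 CPM, at 0.60, 0.67 and 0.56 times that level, close to the share at which proximal tubule markers were found in members. The log2 ratio of Khk for db/db fructose over db/db control was 0.28 in members and 0.44 in other barcodes.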

How the data were processed

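The matrices hold raw UMI counts per gene and barcode as the authors deposited them, made with Cell Ranger 6.0.0 on mm10, per the file headers and the submitters' processing notes. They list 32285 gene IDs under 32245 symbols, and IDs that share a symbol were summed. Members were the barcodes with 200 or more genes, at most 50% mitochondrial UMIs, 3 or more Slc12a3 UMIs and at most 1 UMI each of Slc12a1 and Aqp2, and their counts were summed per library. The members, the 20 gene lists and the splits were chosen with earlier results of these data known. Genes with 20 CPM or more in either library of a pair were compared by their log2 CPM ratio, and 1.5-fold or more was counted. Intervals at 95% are exact Poisson for CPM, exact conditional binomial for ratios and Clopper-Pearson for shares, and cover counting error only. Member sums held 2982294, 5324800 and 1554850 UMIs in the db/db fructose, db/db control and db/m control libraries. With 1 library in each group there is no test and no p-value. Named genes were the 8 highest and 8 lowest ratios among genes at 50 CPM or more in the higher library and at or above their level in other barcodes there, plus up to 4 members of each list with the largest ratios and members of the identity, NCC, magnesium and calcium lists. For late over early members, the genes past 1.5-fold the same way in all 3 libraries were ranked by their median ratio. The ranking skipped genes of mitochondria, ribosomes, haemoglobin and immunoglobulins, and models without a gene name. Barcodes were thinned to 1000 UMIs where shares were compared across depths, and shallower barcodes were left out. Doublets were kept in the main values, and barcodes with the highest Scrublet scores (0.8% per 1000 barcodes) were removed in an alternative. The ratio step was checked on simulated data. Python 3.11.15, numpy 2.4.6, scipy 1.17.1, pandas 2.3.3 and scanpy 1.11.5 were used. Some genes are not reported here.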

Additional observations from a re-analysis of the deposited data

Results flagged for a closer look

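Barcodes that failed the filter on genes or mitochondrial share were not used above. Of these, 16.5% in the db/db fructose library (175 of 1062) and 15.8% in the db/db control library (838 of 5295) met the limits on Slc12a3, Slc12a1 and Aqp2, against 5.51% in the db/m control library (125 of 2268). They drew notice because data outside the members held the defining gene more often than in the db/m control library.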

How the results depend on the processing

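No paired analysis was possible because each group is 1 library, and for the same reason no library could be left out of its group. Of 174 alternative values for the member shares and gene counts, 98 stayed within the limits set (1.5 times for counts, the counting interval for shares), 76 moved and 0 reversed. Ratios with a library at 0 counts were not recomputed. The requirement of 10 Slc12a3 UMIs, that of a Trpm6 or Klhl3 UMI, and the alternatives for S100g among Pvalb members were chosen after seeing the data. Where a value moved or reversed, the cause was not tested unless fewer genes or members were counted by construction.

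Member shares in the db/db fructose, db/db control and db/m control libraries were 6.72%, 10.6% and 6.01% at no more than 30% mitochondrial UMIs, 6.60%, 9.30% and 6.04% with 5 Slc12a3 UMIs, 4.12%, 6.05% and 3.75% with Slc12a1 and Aqp2 at 0, 6.01%, 7.76% and 5.56% with 10 Slc12a3 UMIs, and 5.42%, 7.49% and 4.61% with a Trpm6 or Klhl3 UMI. Thinning gave 7.71% in the db/db fructose and 11.6% in the db/db control library. The db/db control library stayed highest in each. The late share was 23.6% in the db/db fructose and 22.3% in the db/db control library with 2 UMIs for Pvalb and S100g, and 12.5% and 6.45% with 5. In the db/db control library it was 11.1% at no more than 30% mitochondrial UMIs and 8.76% after thinning, and in the db/m control library 1.90% with Slc12a1 and Aqp2 at 0. S100g among Pvalb members was 59.4%, 23.0% and 13.9% after thinning, and in the db/db control library 52.8% at no more than 30% mitochondrial UMIs and 38.0% with 5 UMIs.

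For db/db fructose over db/db control (803 genes higher and 46 lower), size factors gave 183 and 166, CPM without mitochondrial UMIs 334 and 157, no more than 30% mitochondrial UMIs 504 and 108, thinning 1307 and 95, free RNA subtracted 1863 and 397, a minimum of 1 CPM 3273 and 626, of 50 CPM 299 and 24, and 2-fold 111 and 14. Slc12a1 and Aqp2 at 0 gave 74 lower. Early members gave 2083 and 973, and late members 2041 and 289. For db/db control over db/m control (212 higher and 735 lower), the counts were 424 and 323 with size factors, 538 and 435 without mitochondrial UMIs, 714 and 1919 with free RNA subtracted, 1644 and 2315 at 1 CPM, 79 and 289 at 50 CPM, 90 and 135 at 2-fold, 767 and 1816 in early and 1025 and 2789 in late members. No more than 30% mitochondrial UMIs gave 452 higher, and Slc12a1 and Aqp2 at 0 gave 334 higher. For late over early members (489 higher and 296 lower), thinning gave 140 and 140, and 2-fold 101 and 58. A minimum of 1 CPM gave 762 higher, 50 CPM 252 higher, 2 UMIs for the split 179 higher, and Slc12a1 and Aqp2 at 0 gave 111 lower.

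Of single genes, log2 ratios of db/db fructose over db/db control turned in early members for Abca13 (-0.14), Atf3 (-0.057), Atp2b4 (-0.068), Casr (0.66), Cd74 (-1.76) and Hspa1a (-0.45), and with free RNA subtracted for Fkbp5 (-0.46). Those of db/db control over db/m control turned in late members for Afm (0.33), Calb1 (-0.32), Ckb (0.46), Cycs (0.094), Gcgr (0.34), H2-Aa (-1.22), Nr4a1 (0.35), Pkm (0.47), Pvalb (0.16) and S100g (-0.12). The db/m control late class had 23 members and the db/db fructose early class 39, which limits these values most.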
